A study of Mus musculus with 20 samples.

Results

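The expression of 50 cell cycle genes and CDK inhibitors, out of 54986 genes in the expression table, was followed across 10 conditions of NMuMG cells, an epithelial line from the normal mouse mammary gland. The 50 genes were taken by name and fell into 8 G1 cyclins and CDKs, 5 CDK inhibitors, 5 transcription factors, 14 DNA replication genes and 18 genes of G2 and mitosis. All 50 passed the filter on low values, which kept the 17103 genes with at least 1 CPM, a count per 1000000 reads, in at least 2 of the 20 libraries. A further row of Kif11, from a patch scaffold, was left out of all counts.

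Each condition had 2 RNA-seq libraries of cultured cells. A first set held unmodified NMuMG cells, NMuMG cells treated with TGFβ for 4 days, NMuMG cells silenced by shRNA for hnRNP E1 (E1KD, the product of Pcbp1), and a pair of lines derived from E1KD cells that had grown in the mammary fat pad of NOD/SCID mice. These lines came from the primary tumor (M1P) and from lung metastases (L1P), were selected with puromycin and were sequenced after culture. A second set held NMuMG cells with an empty vector, the clones cl12 and cl16 that overexpress the long noncoding RNA Platr18, and E1KD cells that carried either a scrambled shRNA (SCR) or an shRNA targeting Platr18 (Platr18 KD). Each overexpressing line was a single clone, and E1KD SCR differed from the empty vector cells in the vectors as well as in hnRNP E1.

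The sets differed in how much of each library came from mitochondrial ribosomal RNA and 7SK RNA, so conditions were compared only within a set. The steps between low CPM values gave a depth of 50800000 to 60000000 reads in the first set and 63000000 to 73900000 in the second, with 147000000 in both Platr18 KD libraries, so that 3 reads were worth 0.0204 to 0.0591 CPM. Pcbp1 had 287 and 312 CPM in NMuMG and 16.6 and 14.2 CPM in E1KD. Platr18, listed as Lncenc1, had 3.68 and 3.06 CPM with the empty vector, 3092 and 3096 CPM in cl12, 813 and 820 CPM in cl16, and 0.136 and 0.170 CPM in Platr18 KD against 2.92 and 3.10 CPM in SCR. The keratins Krt8 and Krt18 were abundant in every condition, while the epithelial markers Epcam and Cldn3 were listed at or near 0 CPM throughout. The 6 host leukocyte markers summed to 84.3 to 88.5 CPM in M1P and 103.3 to 103.6 CPM in L1P, against 94.3 to 95.4 CPM in NMuMG cells, which had not grown in mice. Most of these sums came from Cd14, and C1qa and Adgre1 were listed at 0 in M1P and L1P. The means of the remaining markers went in different directions. Cd68 had 2.68 CPM in M1P and 1.93 CPM in L1P, against 1.09 CPM in NMuMG and 2.03 CPM in E1KD. Ptprc had 0.0616 and 0.0292 CPM in M1P and L1P against 0.0177 CPM in NMuMG. Csf1r had 0.121 and 0.350 CPM against 1.21 CPM. Summed endothelial and adipocyte markers reached at most 0.628 and 0.414 CPM in any library.

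Replicate 1 of E1KD stood apart. The CPM of its listed genes summed to 728645, against 547491 to 581384 in the other 9 libraries of the first set. Its log2(CPM + 1) values exceeded those of replicate 2 by a median of 0.29 across the genes tested and by 0.53 across the 50 cell cycle genes, all 50 of which were higher in replicate 1. Results that rest on E1KD are therefore given with and without this library. Without it E1KD has 1 library and adds nothing to the estimated spread. Calls made without replicate 1 therefore rest on 1 E1KD library and do not test whether a change recurs between E1KD libraries. The labels do not say that replicates came from separate cultures, so p-values reflect only the spread between these libraries, and fewer cycling cells cannot be told apart from less RNA per cycling cell.

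Cells enter the cycle when D-type cyclins with Cdk4 or Cdk6, and then E-type cyclins with Cdk2, phosphorylate the retinoblastoma family and release E2F transcription factors. E2F targets load and fire replication origins and supply nucleotides, and a later wave of genes, controlled by B-Myb, FoxM1 and the DREAM complex through CHR promoter elements, builds the mitotic machinery. The Ink4 inhibitors (Cdkn2a, Cdkn2b, Cdkn2c) bind Cdk4 and Cdk6, and the Cip/Kip inhibitors p21 (Cdkn1a) and p27 (Cdkn1b) bind cyclin-CDK complexes more broadly. TGFβ is a textbook inhibitor of epithelial proliferation and is known to induce Cdkn2b and Cdkn1a.

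In untreated NMuMG cells the level per kb of exon was highest for cyclin D1 among the G1 genes, at 94.6 CPM per kb for Ccnd1. Cdk4 followed with 39.9, Ccnd2 with 20.3, Cdk6 with 8.56, Ccnd3 with 6.89 and Cdk2 with 5.99 CPM per kb, and the E-type cyclins were low, with 2.01 for Ccne1 and 0.986 for Ccne2. Among the inhibitors Cdkn2b led with 24.4 CPM per kb, ahead of Cdkn1a (15.7), Cdkn1b (14.2), Cdkn2c (5.82) and Cdkn2a (4.21). The gene models that gave the lengths of Cdkn1a and Cdkn2b differ slightly in their ends from the deposited annotation. These are levels in 1 condition, and neighbours such as Cdkn1a and Cdkn1b lay close together. On GRCm38, Cdkn2a (ENSMUSG00000044303.6, chr4:89274471-89294653) and Cdkn2b (ENSMUSG00000073802.4, chr4:89306289-89311032) are neighbours on the minus strand. Cdkn2c (ENSMUSG00000028551.14) lies at chr4:109660876-109667189, Cdkn1a (ENSMUSG00000023067.13) at chr17:29090979-29100722, Cdkn1b (ENSMUSG00000003031.14) at chr6:134920401-134925513 and Ccnd1 (ENSMUSG00000070348.5) at chr7:144929931-144939925.

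After TGFβ nearly the whole set of genes was lower. Of the 50 genes, 42 fell and 3 rose at a Benjamini-Hochberg adjusted p under 0.05 in limma, and among all 17103 genes 55.4% were called, 33.6% lower and 21.8% higher. By a stricter rule, an unadjusted p under 0.001 with a log2 fold change of at least 1 in size, 33 fell and 1 rose, against 7.67% and 5.85% of all genes. The median log2 fold change was -1.82 over the 50 genes and -0.08 over all genes tested. In 45 of the 50 genes both TGFβ-treated libraries lay below both untreated libraries, a count that was not made over all genes. The size of the fall differed between the lists, as the median was -0.62 for G1 cyclins and CDKs, -1.13 for replication genes, -1.85 for transcription factors and -2.68 for genes of G2 and mitosis, with 0.77 for the 5 CDK inhibitors.

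**Figure D1:**
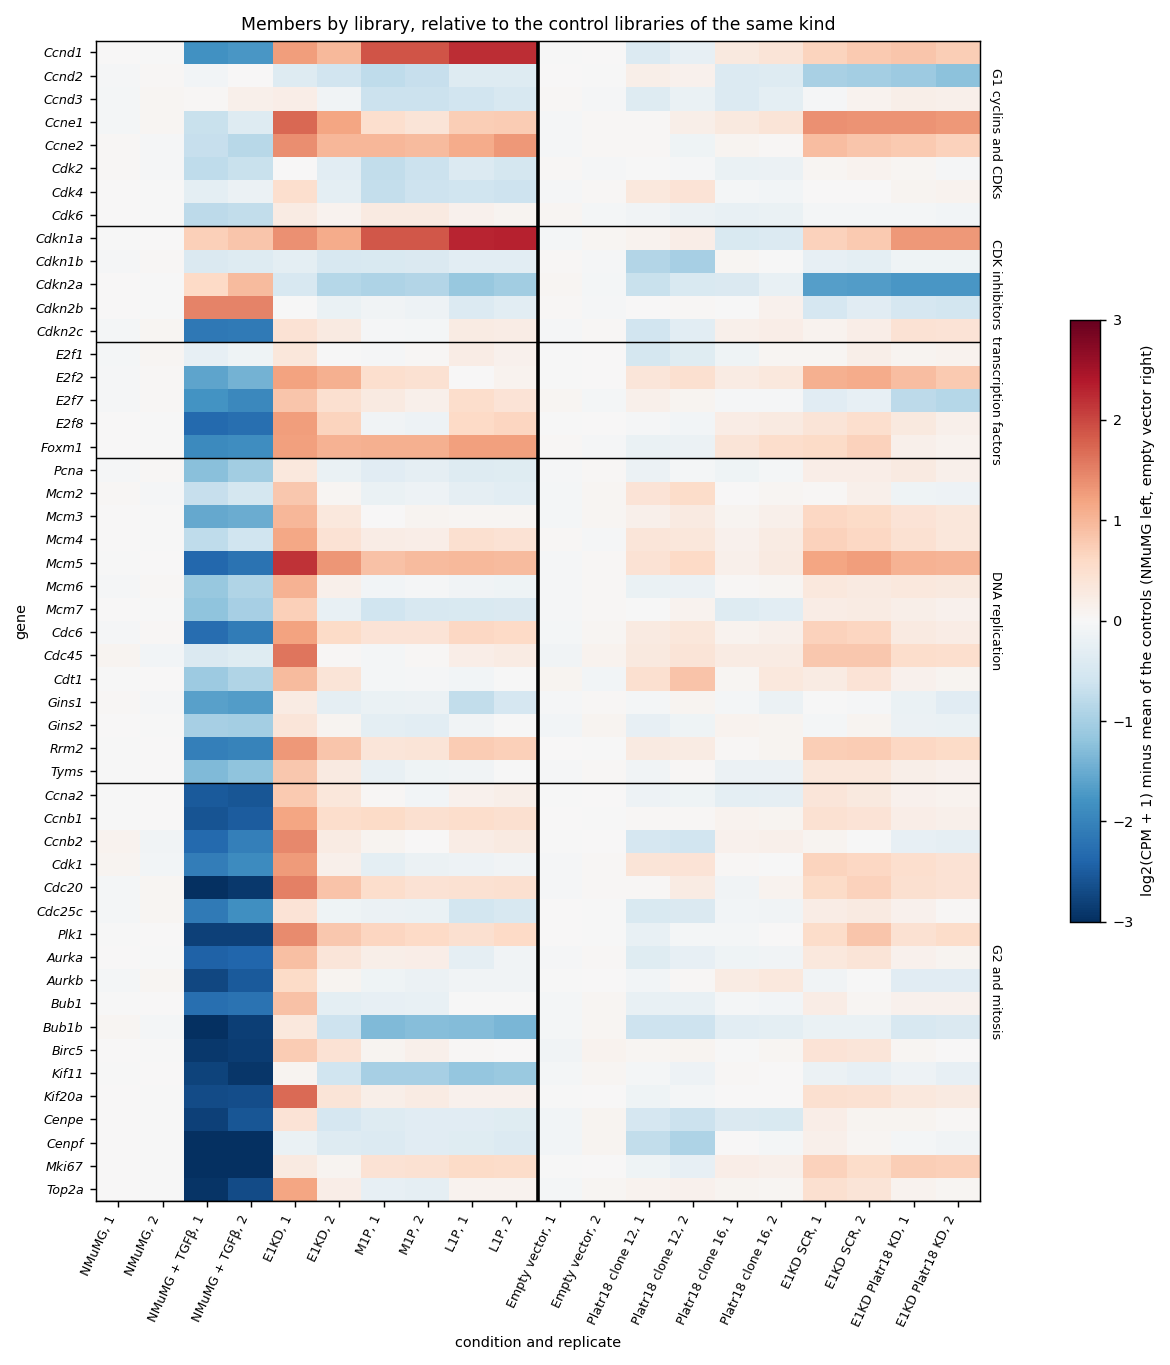
Heat map of log2(CPM + 1) for the 50 genes (rows, grouped by role) in the 20 libraries (columns), each minus the mean of the control of its set, which is NMuMG for the first 10 libraries and empty vector for the last 10. Colors stop at 3 in either direction. The TGFβ columns are blue for nearly all replication, transcription factor and mitotic rows, and the first E1KD column is redder than the second.

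All 18 genes of G2 and mitosis fell after TGFβ, with log2 fold changes from -1.98 to -3.15. Mki67, whose product Ki-67 coats mitotic chromosomes and marks cycling cells, had 514 and 505 CPM in NMuMG and 57.0 and 56.1 CPM after TGFβ. This is a 9.01-fold lower level, with a log2 fold change of -3.15 (SE 0.0691, limma adjusted p = 5.887e-14). Cenpf, a kinetochore protein, went from 167 and 166 CPM to 18.1 and 19.9 CPM (log2 fold change -3.07, SE 0.0832, limma adjusted p = 4.983e-13). Survivin (Birc5), a subunit of the chromosomal passenger complex, went from 65.5 and 63.8 CPM to 7.83 and 8.10 CPM (log2 fold change -2.87, SE 0.0900, limma adjusted p = 2.557e-12). For these genes the libraries of each pair lay close together and the pairs were far apart. The mitotic cyclins showed the same direction: Ccnb1 had 24.7 and 25.0 CPM before and 3.32 and 3.62 CPM after treatment, and Ccna2 had 67.5 and 68.9 CPM before and 11.01 and 10.62 CPM after.

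Promoter sequence was not used to choose the genes. Of the 50 genes, 39 had a promoter in the RefSeq table of GRCm38.p6, from 250 bases before to 50 after the start. Counts are of genes with a promoter in the table, and a gene counted if any of its promoters held a match. The 6-base CHR letters (TTTGAA or TTTAAA, either strand) occurred for 13 of 14 G2 and mitosis genes and 4 of 11 replication genes, against 30.6% of the 27025 genes of the table. Short windows of 5 mitotic promoters are shown because they hold this element, with the CHR letters in capitals and each sequence written on the strand of its gene.
Ccnb2, chr9:70421534-70421561, minus strand: gcggcgcggtaTTTGAAtcgcggaccgg
Cdc20, chr4:118437345-118437372, minus strand: gacagttgggtTTTGAAggagccaatga
Plk1, chr7:122159395-122159422, plus strand: cgggtttgtatTTTAAAtccccgcggcc
Cdk1, chr10:69352911-69352938, minus strand: accgcggcgagTTTGAAactgctggcac
Cenpf, chr1:189688068-189688095, minus strand: gcggcgggcagTTTGAAtcgctcgtgct
In the Cdc20 window the letters ccaat follow the CHR letters. CCAAT on either strand occurred for 13 of 14 G2 and mitosis genes, 8 of 11 replication genes and 41.1% of all genes of the table. A match is only a description of the letters, and binding was not measured. Ccnd1, Ccnd2, Ccne2, Foxm1, Mcm4, Gins1, Gins2, Ccna2, Cdc25c, Aurkb and Kif20a were not searched.

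The replication genes fell less far after TGFβ but almost as uniformly, 13 of 14 being lower. Rrm2, the small subunit of ribonucleotide reductase, had 60.8 and 62.7 CPM in NMuMG and 14.2 and 14.5 CPM after TGFβ (log2 fold change -2.03, SE 0.102, limma adjusted p = 4.018e-10). Cdc6, which loads the MCM helicase on origins, went from 14.5 and 15.1 CPM to 2.25 and 2.70 CPM (log2 fold change -2.19, SE 0.137, limma adjusted p = 4.68e-09). Mcm5, a subunit of that helicase, went from 27.6 and 28.2 CPM to 4.64 and 5.18 CPM (log2 fold change -2.29, SE 0.174, limma adjusted p = 4.05e-08). The fall of Mcm5 was the deepest in its complex, as Mcm2 kept 44.1 and 49.4 CPM of 73.4 and 70.4 CPM. Cdc45 did not pass the test, but it was barely detected, at 0.566 and 0.415 CPM before and 0.1002 and 0.1499 CPM after treatment. Cdc45 overlaps Ufd1l on the other strand, as Cdk4 does Tspan31, and the strand used in counting is not given in the sources used here, so these pairs may share reads.

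E2F letters (TTTGGCGC, TTTGGCGG, TTTCCCGC or TTTCGCGC, either strand) occurred for 6 of 11 replication genes, 1 of 14 G2 and mitosis genes and 2.7% of all genes with a promoter, counted in the same way. Windows of 4 replication promoters are shown because they hold these letters, each with 1 match in capitals on the strand of the gene.
Mcm5, chr8:75109346-75109373, plus strand: cgccaagaacTTTCGCGCcaaaacgtcc
Mcm6, chr1:128359735-128359762, minus strand: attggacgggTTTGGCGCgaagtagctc
Cdc6, chr11:98908003-98908030, plus strand: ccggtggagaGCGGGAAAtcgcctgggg
Cdt1, chr8:122568037-122568064, plus strand: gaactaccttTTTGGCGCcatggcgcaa
In the Cdc6 window the letters run on the opposite strand, as the reverse complement of TTTCCCGC. The Mcm5 window holds a further match, GCGCCAAA on the opposite strand, that overlaps the capitals. The lists do not part cleanly by these letters. Cdk1, shown above for its CHR letters, is the G2 and mitosis gene with E2F letters, and the Mcm5 promoter also holds CHR letters (TTTAAA).

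Of the transcription factors, 4 of 5 fell after TGFβ. Foxm1, the activator of G2 and mitosis genes, had 111 and 109 CPM in NMuMG and 28.3 and 29.4 CPM after TGFβ (log2 fold change -1.90, SE 0.0712, limma adjusted p = 1.74e-11). The atypical repressor E2f7 went from 13.1 and 13.7 CPM to 3.19 and 2.80 CPM (log2 fold change -1.85), its relative E2f8 from 19.2 and 19.1 CPM to 2.99 and 3.21 CPM (-2.30), and the activator E2f2 from 6.66 and 6.96 CPM to 1.62 and 1.92 CPM (-1.50). E2f1, with 24.5 and 26.2 CPM before and 21.1 and 23.01 CPM after, did not pass (log2 fold change -0.19, limma adjusted p = 0.1489). With libraries scaled to equal sums over protein-coding genes E2f1 and Cdk4 were lower after TGFβ as well.

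The G1 machinery split by cyclin. Ccnd1 fell 3.45-fold, from 447 and 443 CPM to 125 and 132 CPM (log2 fold change -1.78, SE 0.0852, limma adjusted p = 2.453e-10), whereas the other D-type cyclins did not pass the test. Ccnd2 had 185 and 197 CPM before and 182 and 192 CPM after TGFβ (log2 fold change -0.03), and Ccnd3 had 57.8 and 63.1 CPM before and 62.0 and 67.1 CPM after (0.09). Cdk6 (121 and 118 CPM to 69.3 and 71.2 CPM), Cdk2 (38.2 and 36.3 CPM to 21.6 and 22.9 CPM), Ccne1 and Ccne2 fell by 0.76, 0.72, 0.53 and 0.76 on the log2 scale. Cdk4, at 130.5 and 128 CPM before and 105 and 115 CPM after, did not pass (log2 fold change -0.23, limma adjusted p = 0.2603). On the per-length scale Ccnd1 was at 27.4 CPM per kb after treatment and Ccnd2 at 19.9 CPM per kb.

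**Figure D2:**
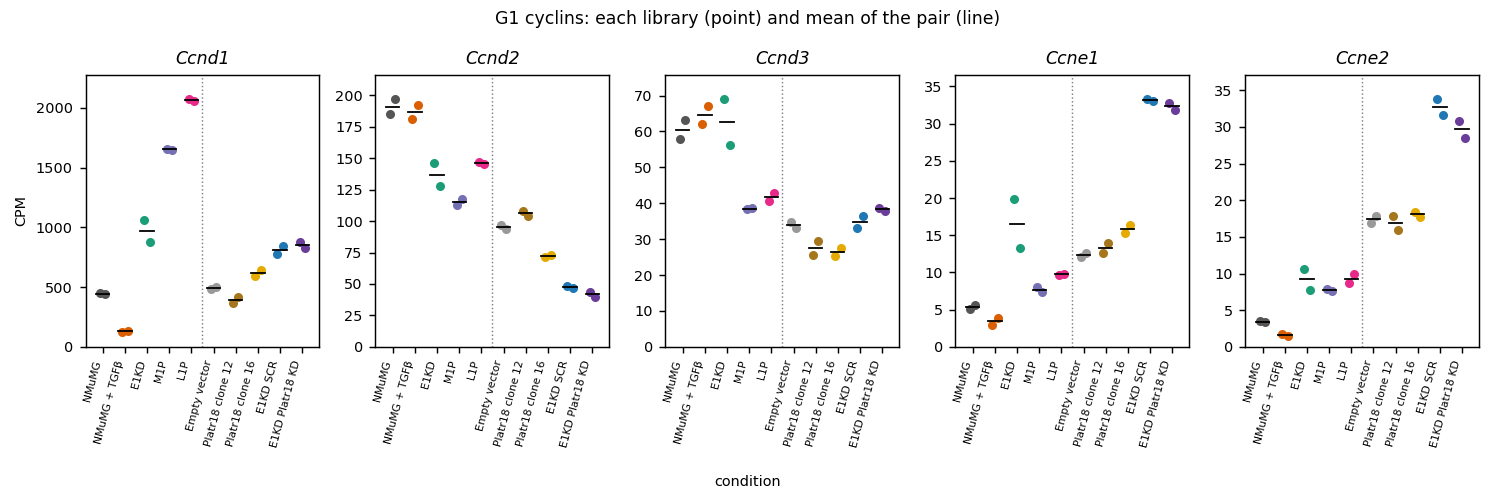
CPM of the 5 G1 cyclins in each library (points), with the mean of each pair as a line, in the 10 conditions; the dotted line parts the sets. Ccnd1 is lowest after TGFβ (125 and 132 CPM) and highest in L1P (2071 and 2054 CPM), while Ccnd2 and Ccnd3 do not separate TGFβ-treated from untreated cells.

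The CDK inhibitors did not move as a block: 3 rose and 2 fell after TGFβ. Cdkn2b, which encodes p15, had 34.0 and 33.8 CPM in NMuMG and 96.5 and 97.2 CPM after TGFβ, a 2.86-fold higher level (log2 fold change 1.49, SE 0.0763, limma adjusted p = 5.189e-10). Cdkn1a rose from 55.0 and 56.8 CPM to 92.1 and 100.4 CPM (log2 fold change 0.77, SE 0.0805, limma adjusted p = 1.257e-06). Cdkn2a, whose locus encodes p16 and p19Arf, rose from 4.99 and 4.88 CPM to 8.01 and 10.6 CPM (log2 fold change 0.78, limma adjusted p = 1.262e-04), and gene-level values cannot separate these products. In the other direction, Cdkn2c, which encodes p18, fell 5.58-fold from 15.0 and 16.2 CPM to 2.75 and 2.85 CPM (log2 fold change -2.13, SE 0.0879, limma adjusted p = 4.897e-11), a fall in the range of the replication genes. Cdkn1b fell from 63.0 and 66.0 CPM to 47.4 and 48.9 CPM (log2 fold change -0.41).

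**Figure D3:**
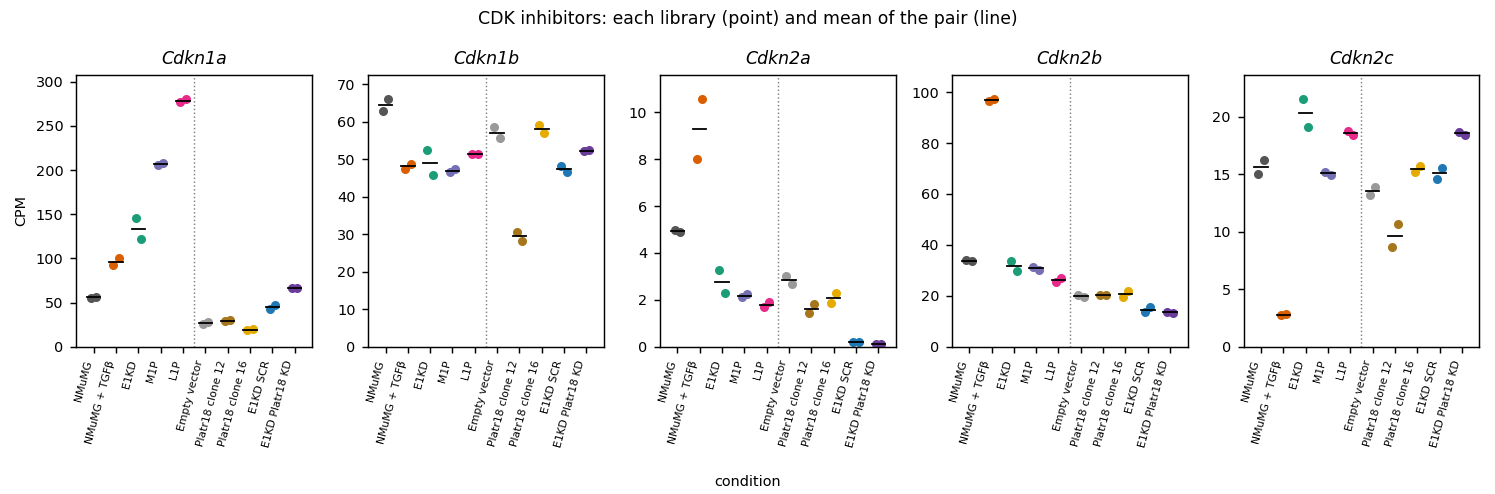
CPM of the 5 CDK inhibitors in each library (points), with the mean of each pair as a line, in the 10 conditions; the dotted line parts the sets. Cdkn2b is highest after TGFβ (96.5 and 97.2 CPM), Cdkn1a is highest in L1P (277 and 280 CPM), and Cdkn1b is lowest in Platr18 cl12 (30.6 and 28.3 CPM).

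Other genes of these pathways were counted in the same way. Of 38 other replication and S phase genes 37 fell after TGFβ and 0 rose, among them Tk1 (thymidine kinase, log2 fold change -2.43), and all 45 other genes of G2 and mitosis fell, among them Aspm (-3.08). Of 23 pocket proteins, DREAM subunits and other CDK regulators tested, 14 fell and 2 rose. Those with the smallest p fell: Rbl1, which encodes the pocket protein p107, by 1.76, Mybl2, which encodes B-Myb, by 1.74, and Cdkn2d, the remaining Ink4 inhibitor, by 1.13 on the log2 scale. Of 18 other p53 targets 10 rose and 2 fell, with Pmaip1 at 2.54 and Btg2 at 1.67. Summed mesenchymal markers were 530 to 551 CPM in NMuMG and 1339 to 1551 CPM after TGFβ, and epithelial markers 2935 to 2988 and 1743 to 2068 CPM, and the part of these shifts in the results was not tested.

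Several of these genes have expressed copies elsewhere in the genome, so their level depends on how reads were shared. In NMuMG, 5 copies of Ccnb1 held 84.0 CPM against 24.9 CPM on Ccnb1 itself, the copy of Mcm7 held 204.9 CPM against 47.5 CPM, and that of Cdc6 20.5 CPM against 14.8 CPM. With copies added, the level was still 8.78-fold higher in NMuMG than after TGFβ for Ccnb1, 6.503-fold for Cdc6, 4.54-fold for Rrm2 and 2.33-fold for Mcm7. For Ccnd3 with its copy, NMuMG held 0.942 times the level after TGFβ.

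Silencing of hnRNP E1, the other route to EMT in this study, gave a different pattern. In E1KD against NMuMG 37 of 50 genes were called, 33 higher and 4 lower, where 56.6% of all genes were called, 39.6% higher and 17.1% lower. By the stricter rule 10 were higher and 0 lower, against 6.44% and 2.99% of all genes. The median log2 fold change was 0.58 over the 50 genes and 0.17 over all genes. Without E1KD replicate 1, 39 were called, of which 25 were higher and 14 lower, against 29.9% and 27.7% of all genes, with medians of 0.17 and 0.00, and 29 genes were called in the same direction in both fits. Replicate 2 alone lay above both NMuMG libraries for 32 of the 50 genes and below both for 16. This order was not counted over all genes, so these counts have no baseline. With median-of-ratios scaling, which brought the median of all genes to 0.02, 28 were higher and 11 lower, against 31.5% and 29.5% of all genes. Genes called in E1KD passed with the spread of all 20 libraries, and 4 of the 50 passed when only the 4 libraries of the comparison were fitted, against 12.1% of all genes.

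**Figure D4:**
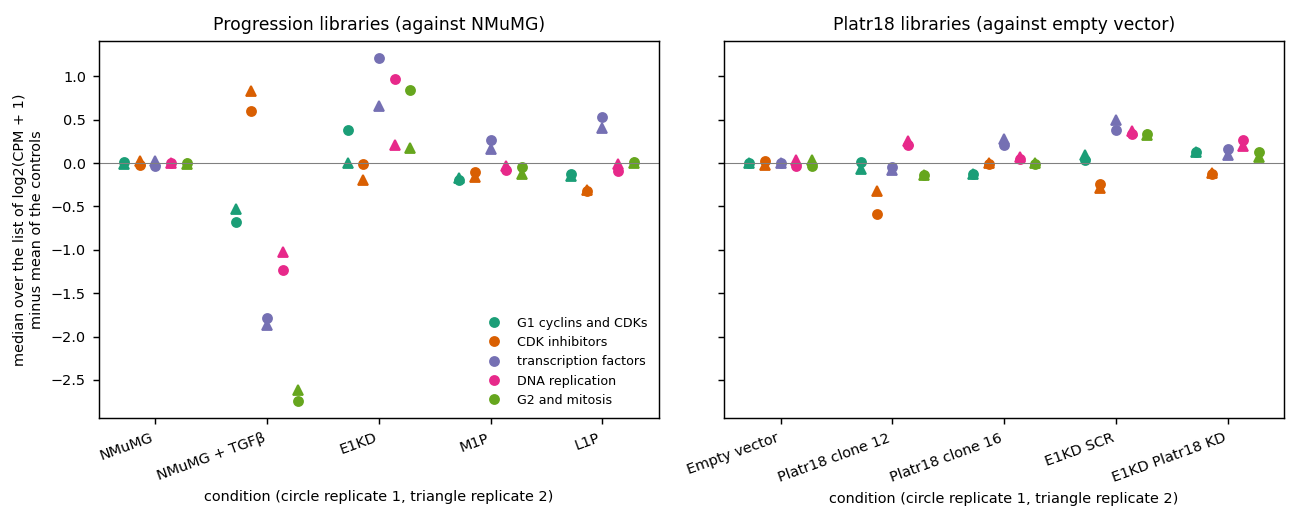
Median over each list of log2(CPM + 1) minus the mean of the control of its set, for each of the 20 libraries (points). After TGFβ the G2 and mitosis list lies lowest and the CDK inhibitors lie above 0; in E1KD the points of replicate 1 lie above those of replicate 2.

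Among the G1 cyclins and CDKs and the transcription factors, the largest rises in E1KD were in Ccnd1, Ccne1, Ccne2, Foxm1 and E2f2. Ccnd1 had 447 and 443 CPM in NMuMG and 1060 and 881 CPM in E1KD (log2 fold change 1.12, SE 0.0852, limma adjusted p = 6.22e-08, and 0.98 without replicate 1). Ccne1, which activates Cdk2 at the G1/S boundary, went from 5.08 and 5.60 CPM to 19.8 and 13.3 CPM (1.45, and 1.18 without replicate 1), and Ccne2 from 3.53 and 3.37 CPM to 10.7 and 7.80 CPM (1.19 and 0.99). Ccnd2 went the other way, from 185 and 197 CPM to 146 and 128 CPM (log2 fold change -0.48, and -0.57 without replicate 1). Foxm1 had 111 and 109 CPM in NMuMG and 261 and 229 CPM in E1KD (log2 fold change 1.14, SE 0.0712, limma adjusted p = 6.787e-09, and 1.05 without replicate 1). E2f2 rose from 6.66 and 6.96 CPM to 17.1 and 15.4 CPM (1.14 and 1.07) and E2f8 from 19.2 and 19.1 CPM to 46.9 and 30.8 CPM (0.95 and 0.66). E2f1, at 32.3 and 24.9 CPM, did not pass (0.16, limma adjusted p = 0.2277).

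Of the replication genes 11 of 14 were higher and 0 lower in E1KD, or 7 higher and 3 lower without replicate 1. Mcm5 went from 27.6 and 28.2 CPM to 128 and 71.3 CPM (log2 fold change 1.74, SE 0.174, limma adjusted p = 1.118e-06, and 1.32 without replicate 1). Rrm2 rose from 60.8 and 62.7 CPM to 153 and 110.5 CPM (1.06 and 0.83) and Cdc6 from 14.5 and 15.1 CPM to 35.4 and 22.7 CPM (0.89 and 0.58). These rises were not shared by the MCM complex as a whole, since without replicate 1 Mcm2 and Mcm6 did not pass and Mcm7 was lower. Mcm7 with its copy was 0.995 times the NMuMG level in E1KD, and Rrm2 with its copy 2.05 times.

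Genes of G2 and mitosis split similarly, with 12 of 18 higher and 1 lower, or 9 higher and 5 lower without replicate 1. Plk1, a mitotic kinase, had 26.7 and 27.5 CPM in NMuMG and 74.0 and 48.5 CPM in E1KD (log2 fold change 1.12, and 0.82 without replicate 1). Cdc20, the activator of the anaphase-promoting complex, went from 21.9 and 24.02 CPM to 67.2 and 42.4 CPM (1.18 and 0.86), and Birc5 from 65.5 and 63.8 CPM to 109.9 and 88.3 CPM (0.60 and 0.44). Against these, Cenpf was lower in both fits (167 and 166 CPM against 145 and 126 CPM, log2 fold change -0.30). Bub1, Bub1b, Kif11 and Cenpe were lower without replicate 1, and of these Bub1b and Kif11 also under the other scalings. The small rises of Mki67 (0.18), Cdk6 (0.17) and Gins2 (0.22) turned negative when the libraries were scaled to equal sums over protein-coding genes.

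Cdkn1a was the inhibitor that rose most in E1KD, from 55.0 and 56.8 CPM to 146 and 122 CPM (log2 fold change 1.24, SE 0.0805, limma adjusted p = 1.067e-08, and 1.11 without replicate 1). Cdkn2c rose to 21.5 and 19.1 CPM (0.35), but passed in neither of the other scalings. Cdkn1b, at 52.4 and 45.7 CPM, and Cdkn2a, at 3.27 and 2.29 CPM, were lower (-0.39 and -0.66). Cdkn2b, at 33.6 and 29.6 CPM, did not pass with both libraries (-0.10, limma adjusted p = 0.28) and was lower without replicate 1. The rise of Cdkn1a stood beside rises of Ccnd1, Foxm1 and E2f2 in the same libraries.

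Of the other lists, 24 of 38 replication and S phase genes were higher and 0 lower in E1KD (16 and 2 without replicate 1), and 21 of 45 G2 and mitosis genes were higher and 1 lower (13 and 8 without it). Mybl2 rose by 1.46 and Myc, an upstream activator of growth and cyclin genes, by 0.76 on the log2 scale (1.23 and 0.66 without replicate 1). The p53 target list was mixed, with 6 of 18 higher and 3 lower (5 and 7 without replicate 1), and its highest member, the death receptor gene Eda2r, was at 3.25. Summed mesenchymal markers were 1333 to 1812 CPM and epithelial markers 2831 to 3970 CPM in E1KD. The epithelial sum was mostly keratins, whose means were higher in E1KD than in NMuMG for Krt8, Krt18 and Krt19. Means of Cdh1 (177 against 234 CPM in NMuMG) and Ocln (9.28 against 18.7 CPM) were lower.

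E1KD and TGFβ-treated cells were also compared directly, in a comparison that shares libraries with both of those above. Of the 50 genes 44 were higher and 3 lower in E1KD, where 71.5% of all genes were called, 50.4% higher and 21.1% lower. By the stricter rule 39 were higher and 2 lower, against 17.2% and 6.17%. The median log2 fold change was 2.50 over the 50 genes and 0.26 over all genes, and 2.04 and 0.10 without replicate 1. All 14 replication genes and all 18 genes of G2 and mitosis were higher in both fits. Mcm5 was 20.3-fold higher in E1KD than after TGFβ (log2 fold change 4.03, SE 0.174, limma adjusted p = 5.622e-11), Birc5 12.4-fold, Mki67 10.2-fold and Ccnd1 7.53-fold. The 3 lower genes were the Ink4 inhibitors Cdkn2b (log2 fold change -1.59, SE 0.0763, limma adjusted p = 1.832e-10) and Cdkn2a (-1.44), and Ccnd2 (-0.45). Cdkn2c was higher (2.48), so members of the Ink4 family differed in both directions. Cdkn1a was higher by 0.46, which fell to 0.07 and did not pass under median-of-ratios scaling, and Cdkn1b did not pass (0.02).

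**Figure D5:**
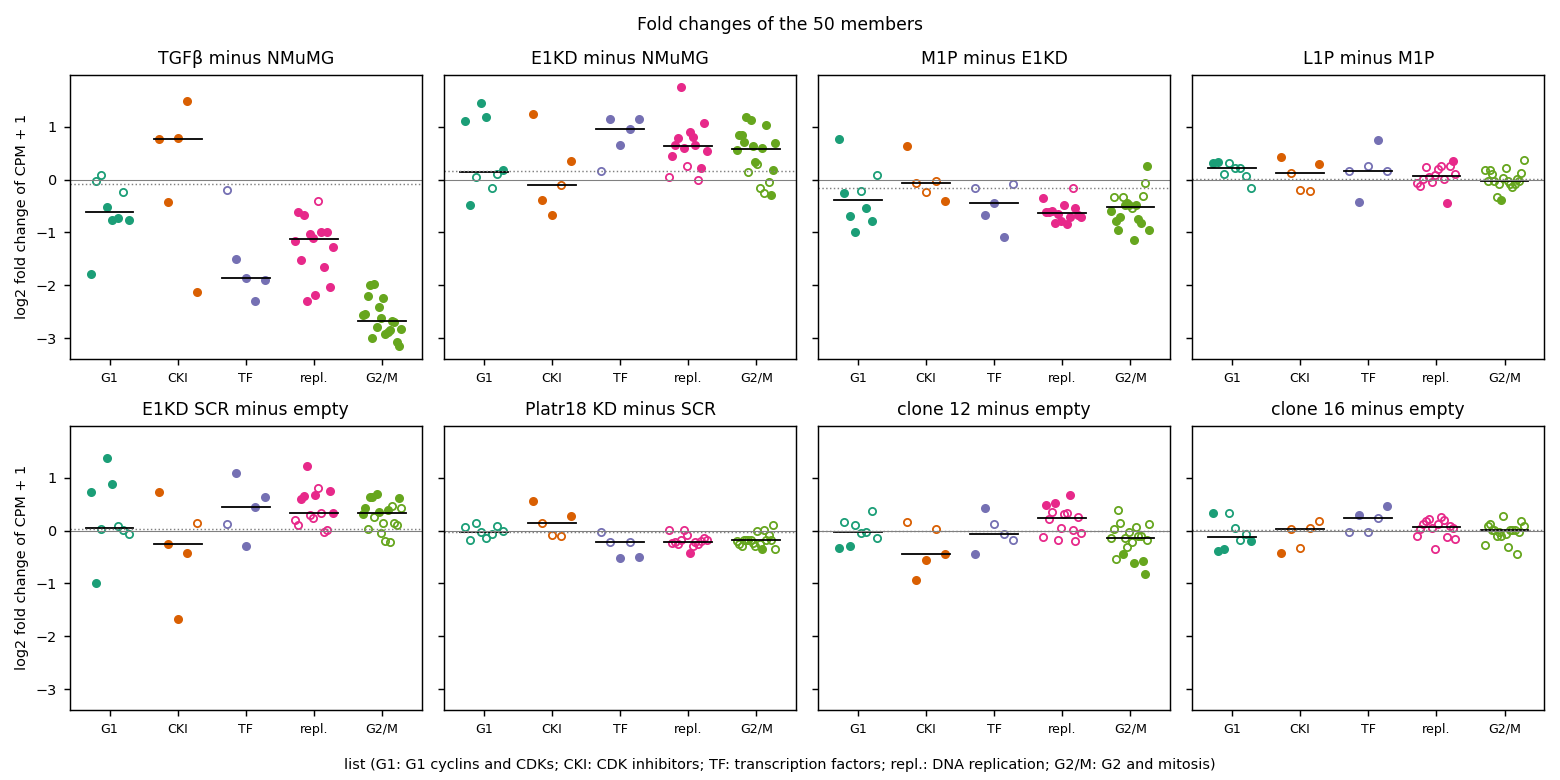
Log2 fold change of each of the 50 genes (points) by list in 8 comparisons, filled where the limma adjusted p was under 0.05 and open where it was not. The line is the median of the list and the dotted line that of all genes tested; the G2 and mitosis median is -2.68 after TGFβ and the medians of the Platr18 comparisons lie near 0.

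The line from the primary tumor had lower values than E1KD for most genes, in a comparison that shares the E1KD libraries with those above. In M1P against E1KD 37 of 50 genes were called, 3 higher and 34 lower, where 49.1% of all genes were called, 12.1% higher and 37% lower. The median log2 fold change was -0.53 over the 50 genes and -0.17 over all genes. Without E1KD replicate 1 these medians were -0.22 and -0.01. The falls were modest: by the stricter rule 2 genes were lower, Bub1b and E2f8, and 0 higher, against 2.43% and 1.16% of all genes. In limma on only the 4 libraries of the comparison 0 of the 50 passed, against 2.38% of all genes, and 15 had an unadjusted p under 0.05.

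Within M1P, Ccnd1 and Cdkn1a went up together while most of the cycle genes went down. Ccnd1 had 1060 and 881 CPM in E1KD and 1659 and 1644 CPM in M1P (log2 fold change 0.77, SE 0.0852, limma adjusted p = 7.438e-06, and 0.91 without replicate 1). Cdkn1a had 146 and 122 CPM in E1KD and 206 and 208 CPM in M1P (0.63, SE 0.0805, limma adjusted p = 3.008e-05, and 0.76 without replicate 1). Mki67 also rose, to 687 and 698 CPM (0.26). Ccne1 fell from 19.8 and 13.3 CPM to 8.05 and 7.32 CPM (log2 fold change -0.99, and -0.72 without replicate 1), and Ccnd3 from 69.0 and 56.1 CPM to 38.4 and 38.5 CPM (-0.68 and -0.53). E2f8 fell from 46.9 and 30.8 CPM to 17.8 and 17.1 CPM (-1.08 and -0.79) and E2f2 from 17.1 and 15.4 CPM to 10.1 and 9.66 CPM (-0.67 and -0.60), while Foxm1 kept 230.4 and 233 CPM and did not pass (-0.08). Bub1b, a spindle checkpoint kinase, had 64.6 and 33.3 CPM in E1KD and 20.1 and 20.8 CPM in M1P (-1.15 and -0.68). Rrm2 fell to 80.4 and 81.6 CPM (-0.67 and -0.44), and 13 of 14 replication genes were lower. With the spread of the first set alone 22 of the 50 were called, 3 higher and 19 lower, where 27.9% of all genes were. Of the 14 replication genes 5 were then lower.

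The remaining inhibitors moved little in M1P. Cdkn2c was lower (15.2 and 14.9 CPM, log2 fold change -0.40), and Cdkn1b (46.6 and 47.3 CPM), Cdkn2a (2.13 and 2.23 CPM) and Cdkn2b (31.4 and 30.1 CPM) did not pass. Of 18 other p53 targets 11 were higher and 3 lower in M1P (12 and 1 without E1KD replicate 1), with Trp53inp1 at 1.48 and Mdm2, the ubiquitin ligase of p53, at 1.06. Of 38 other replication and S phase genes 28 were lower and 0 higher (18 and 3 without replicate 1), and of 45 other G2 and mitosis genes 23 were lower and 0 higher (14 and 5). Of the pocket proteins and CDK regulators 15 of 23 were lower and 1 higher (10 and 2 without replicate 1). The higher gene was Rb1 itself, at a log2 fold change of 0.93.

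The line from lung metastases differed from the tumor line in few of the 50 genes. In L1P against M1P 9 genes were called, 6 higher and 3 lower, where 18.5% of all genes were called, 11.2% higher and 7.3% lower, so the share was near that of all genes. By the stricter rule 0 were called, against 1.21% of all genes. The median log2 fold change was 0.10 over the 50 genes and 0.02 over all genes. Ccnd1 rose further, to 2071 and 2054 CPM (log2 fold change 0.32, SE 0.0852, limma adjusted p = 0.01676), as did Cdkn1a, to 277 and 280 CPM (0.43, SE 0.0805, limma adjusted p = 0.001818). Both genes had libraries that did not overlap at any of the steps from NMuMG to E1KD, M1P and L1P, and on the per-length scale L1P held 438 CPM per kb of Ccnd1 and 78.3 CPM per kb of Cdkn1a. Ccnd2 rose from 113 and 118 CPM to 147 and 145 CPM (0.34). E2f8 rose from 17.8 and 17.1 CPM to 29.4 and 30.4 CPM (0.74, SE 0.132, limma adjusted p = 0.001195) and E2f2 fell from 10.1 and 9.66 CPM to 6.89 and 7.38 CPM (-0.42). Cdkn2c (0.29) and Rrm2 (0.36) rose, and Gins1 (-0.44), a subunit of the replicative helicase, and the mitotic kinase Aurka (-0.38) fell. With the spread of the first set alone 4 of the 50 were called, 3 higher and 1 lower, where 9.76% of all genes were. These held no replication gene and no gene of G2 and mitosis, so Rrm2, Gins1 and Aurka did not pass there. Foxm1 (258 and 259 CPM) did not pass, and neither did Cdkn1b (51.5 and 51.3 CPM), Cdkn2a (1.69 and 1.90 CPM) or Cdkn2b (25.4 and 27.2 CPM). Of the p53 targets 9 of 18 were higher and 1 lower, with Eda2r at 1.21 and Mdm2 at 0.81. Of the pocket proteins and CDK regulators 5 of 23 were higher and 0 lower, with Rb1 at 0.58, and of the 45 G2 and mitosis genes 2 were higher and 0 lower.

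In the second set, silencing of hnRNP E1 could be read again, in E1KD SCR against empty vector cells. Pcbp1 had 32.3 and 32.3 CPM with the empty vector and 3.28 and 3.46 CPM in E1KD SCR. Platr18 was not higher in E1KD SCR (2.92 and 3.10 CPM) than with the empty vector (3.68 and 3.06 CPM). In the first set it had 1.24 and 1.45 CPM in NMuMG and 17.9 and 14.6 CPM in E1KD. Of the 50 cell cycle genes 26 were called, 21 higher and 5 lower, where 42.6% of all genes were called, 23% higher and 19.6% lower. The median log2 fold change was 0.31 over the 50 genes and 0.02 over all genes, and by the stricter rule 3 were higher and 1 lower, against 2.91% and 3.07% of all genes. Ccne1 went from 12.01 and 12.56 CPM to 33.3 and 33.0 CPM (log2 fold change 1.36, SE 0.138, limma adjusted p = 1.861e-06) and Ccnd1 from 484 and 497 CPM to 777 and 842 CPM (0.72). Ccnd2 fell 2.01-fold, from 96.7 and 93.7 CPM to 48.0 and 46.6 CPM (-0.99, SE 0.0699, limma adjusted p = 3.918e-08). E2f2 rose from 3.06 and 3.06 CPM to 7.44 and 7.78 CPM (1.09) and Foxm1 from 35.7 and 34.2 CPM to 52.1 and 57.2 CPM (0.63). Mcm5 went from 63.0 and 65.7 CPM to 148 and 154 CPM (1.22) and Rrm2 from 72.9 and 71.8 CPM to 121 and 123 CPM (0.75), and 6 of 14 replication genes were higher and 0 lower. Of 18 genes of G2 and mitosis 8 were higher and 0 lower, and among these Mki67 rose from 495 and 511 CPM to 809.9 and 741 CPM (0.62).

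The inhibitors in E1KD SCR were led by Cdkn2a, which fell from 3.01 and 2.68 CPM to 0.217 and 0.206 CPM, a 13.5-fold lower level (log2 fold change -1.67 on the log2(CPM + 1) scale, SE 0.130, limma adjusted p = 1.184e-07). Cdkn1a rose from 25.6 and 27.7 CPM to 43.3 and 47.0 CPM (0.74), Cdkn2b fell from 20.3 and 19.6 CPM to 13.8 and 15.4 CPM (-0.43) and Cdkn1b from 58.5 and 55.7 CPM to 48.1 and 46.6 CPM (-0.26). Cdkn2c, at 14.6 and 15.6 CPM, did not pass (0.14). Of the other lists 15 of 38 replication genes were higher and 0 lower, 14 of 45 G2 and mitosis genes were higher and 3 lower, 5 of 23 pocket proteins and CDK regulators were higher and 3 lower, and 5 of 18 p53 targets were higher and 6 lower.

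The effect of hnRNP E1 silencing was also tested for a difference between the sets, as the E1KD SCR effect less the E1KD effect. Of the 50 genes 9 differed, 2 more positive and 7 more negative in the second set, where 21.3% of all genes did, 5.86% and 15.4%. This comparison depended on the E1KD library more than on any other. The median difference over all genes was -0.17 with all libraries, 0.01 without E1KD replicate 1 and -0.32 without E1KD replicate 2. With median-of-ratios scaling 12 of the 50 genes differed (5 and 7), against 14.3% and 15.9% of all genes. By the stricter rule 1 gene differed, Cdkn2a, against 3.51% of all genes. E2f7 differed most by p, having risen in E1KD (13.1 and 13.7 CPM to 24.7 and 19.1 CPM) and fallen in E1KD SCR (6.74 and 6.23 CPM to 4.95 and 5.30 CPM), with a difference of -0.94 (SE 0.147, limma adjusted p = 3.401e-04, and -0.76 without replicate 1). The set of libraries and the vectors differ together in this comparison and cannot be told apart.

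Silencing of Platr18 in E1KD cells moved few of the genes past the threshold. In Platr18 KD against SCR 6 of 50 were called, 2 higher and 4 lower, where 19.5% of all genes were called, 8.45% higher and 11% lower, and 0 were called by the stricter rule, against 1.48%. The 2 higher genes were inhibitors: Cdkn1a had 43.3 and 47.0 CPM in SCR and 66.8 and 66.8 CPM in Platr18 KD (log2 fold change 0.56, SE 0.0805, limma adjusted p = 1.986e-04), and Cdkn2c had 14.6 and 15.6 CPM in SCR and 18.7 and 18.4 CPM in Platr18 KD (0.28). Foxm1 fell from 52.1 and 57.2 CPM to 39.2 and 37.5 CPM (-0.50, SE 0.0712, limma adjusted p = 1.789e-04) and E2f7 from 4.95 and 5.30 CPM to 3.34 and 3.17 CPM (-0.53). Cdc6 fell from 40.4 and 39.7 CPM to 30.0 and 29.1 CPM (-0.42) and Birc5 from 79.0 and 76.8 CPM to 61.7 and 60.0 CPM (-0.35). Cdkn1b (52.1 and 52.5 CPM), Cdkn2a (0.142 and 0.143 CPM) and Cdkn2b (13.8 and 13.2 CPM) did not pass. With the spread taken from the second set alone 28 were called, 3 higher and 25 lower, where 36.6% of all genes were, and all 6 genes named here were among them. The 25 lower genes then included Mcm2 to Mcm5, E2f2, E2f8, Rrm2, Ccna2, Ccnb1, Cdk1 and Top2a, and the third higher gene was Cdkn1b. Median-of-ratios scaling gave 3 higher and 11 lower, against 16.3% and 15.1% of all genes, and equal sums over protein-coding genes gave 2 higher and 16 lower, against 14.2% and 17.5%.

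Of the other lists in Platr18 KD, 11 of 18 p53 targets were higher and 0 lower, with Trp53inp1 at 1.26, Btg2 at 0.97 and Pmaip1 at 0.79. Of 38 replication genes 6 were lower and 0 higher, with Tk1 at -0.57, of 45 G2 and mitosis genes 4 were lower and 0 higher, and of 23 pocket proteins and CDK regulators 4 were lower and 0 higher, with Skp2, part of the ubiquitin ligase for p27, at -0.45. Both Platr18 KD libraries were deeper than those of SCR (147000000 against 63000000 and 73900000 reads). The 5 mesenchymal markers summed to 751 to 816 CPM in SCR and 507 to 517 CPM in Platr18 KD, and the 7 epithelial markers to 2580.0 to 2843 CPM and 2252 to 2295 CPM. Keratins made up most of the epithelial sum, and its members did not move together. From SCR to Platr18 KD the means of Krt8 (914 to 737 CPM), Krt18 (1292 to 1076 CPM) and Krt19 (386 to 301 CPM) fell. Those of Cdh1 (102 to 127 CPM) and Ocln (17.3 to 32.4 CPM) rose. The part of depth and of these markers in the results was not tested.

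Overexpression of Platr18 was read in both clones. Their mean differed from the empty vector in 8 of 50 genes, 2 higher and 6 lower, where 28.8% of all genes were called, 13.2% higher and 15.6% lower, and 0 were called by the stricter rule, against 1.46%. With the spread of the second set alone 29 were called, 13 higher and 16 lower, where 47.6% of all genes were, and with median-of-ratios scaling 9 were higher and 12 lower, against 19.3% and 22.1%. Ccnd3 fell from 34.9 and 33.0 CPM to 25.5 and 29.6 CPM in cl12 and 25.3 and 27.4 CPM in cl16 (log2 fold change of the mean -0.32, SE 0.0850, limma adjusted p = 0.01041). E2f2 rose from 3.06 and 3.06 CPM to 4.23 and 4.66 CPM in cl12 and 3.81 and 4.09 CPM in cl16 (0.36, SE 0.0735, limma adjusted p = 0.002216). Both genes lay on the same side of the empty vector in both clones. Cdk6 (-0.18), Cenpe (-0.51) and Cenpf (-0.42) were lower and Cdt1 (0.43) was higher in the mean.

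The clones differed from each other in 14 of the 50 genes, 9 higher and 5 lower in cl16 than in cl12, where 42.5% of all genes differed, 23.7% higher and 18.9% lower. With median-of-ratios scaling 15 were higher and 13 lower, against 28.4% and 25.2% of all genes, and by the stricter rule 0 differed, against 4.39%. Cdkn1b separated them most among the inhibitors: it had 58.5 and 55.7 CPM with the empty vector, 30.6 and 28.3 CPM in cl12 and 59.2 and 57.0 CPM in cl16 (difference of cl16 and cl12 0.95 on the log2 scale, SE 0.0680, limma adjusted p = 6.817e-08). Cdkn1a had 28.7 and 30.9 CPM in cl12 and 19.2 and 19.8 CPM in cl16 (-0.58), and Cdkn2c had 8.69 and 10.7 CPM in cl12 and 15.2 and 15.8 CPM in cl16 (0.63). Against the empty vector, Cdkn1b (-0.93), Cdkn2c (-0.45) and Cdkn2a (-0.56) were lower in cl12, and Cdkn1a (-0.43) was lower in cl16. Cdkn2a (1.43 and 1.81 CPM in cl12, 1.86 and 2.29 CPM in cl16) and Cdkn2b (20.3 and 20.3 CPM in cl12, 19.8 and 21.9 CPM in cl16) did not differ between the clones past the threshold. Ccnd1 was lower than the empty vector in cl12 (367 and 414 CPM, -0.33) and higher in cl16 (596 and 639 CPM, 0.33), and Foxm1 was higher in cl16 (46.3 and 50.7 CPM, 0.46).

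By clone, 14 of 50 genes were called in cl12 against the empty vector, 4 higher and 10 lower, where 39.6% of all genes were called, 18.1% higher and 21.5% lower, and 7 in cl16, 3 higher and 4 lower, where 23.2% were called, 11.3% higher and 11.9% lower. With median-of-ratios scaling cl12 had 11 higher and 16 lower, against 24.2% and 27.1% of all genes. In cl12 the replication genes Mcm2 (0.49), Mcm5 (0.52) and Cdt1 (0.66) were higher while Cenpf (-0.83), Bub1b (-0.62), Cenpe (-0.58) and the phosphatase gene Cdc25c (-0.45) were lower. No replication gene and no gene of G2 and mitosis was called in cl16 against the empty vector. This rests on the spread of all libraries: with the spread of the second set alone 23 of 50 were called in cl16, 12 higher and 11 lower, where 41.6% of all genes were, and these held 5 replication genes (3 higher, 2 lower) and 7 of G2 and mitosis (4 higher, 3 lower). With median-of-ratios scaling 6 were higher and 11 lower in cl16, against 17.4% and 18.7% of all genes. Of the other lists in the mean of the clones, 4 of 38 replication genes were higher and 1 lower, 0 of 45 G2 and mitosis genes were higher and 5 lower, 2 of 23 pocket proteins and CDK regulators were higher and 4 lower, and 5 of 18 p53 targets were higher and 3 lower.

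Across the 10 conditions the 5 inhibitors peaked in different places. By CPM, Cdkn2b and Cdkn2a were highest after TGFβ, Cdkn1a in L1P, Cdkn1b in untreated NMuMG and Cdkn2c in E1KD, within the first set. The peak of Cdkn2c was narrow, at 21.5 and 19.1 CPM in E1KD against 18.8 and 18.4 CPM in L1P. Its rise from NMuMG to E1KD passed in neither of the other scalings. In the second set Cdkn1a and Cdkn2c were highest in Platr18 KD, and Cdkn2a was highest with the empty vector.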

How the data were processed

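Per the labels and the study's methods, total RNA of 2D cultures was extracted with Trizol and sequenced. The authors aligned reads with Bowtie2 2.2.5 to GRCm38.p6, quantified genes of the mouse M18 annotation with the Partek E/M method and deposited CPM (counts per 1000000 reads) with 0.0001 added, which was subtracted here. Low values were whole read multiples (tolerance 0.05) for 88.8% to 97.2% of values per library, so no count test was run. log2(CPM + 1) was fitted with limma 3.58.1 (R 4.3.3) with a trend, 10 group means over 20 libraries and 10 residual degrees of freedom. The study's own test, Partek GSA, was not used here. p-values were adjusted (Benjamini-Hochberg) over 17103 genes. The 50 genes, the other lists and the tests were chosen with earlier results of these data known.

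All 50 genes could be named, with inhibitors in every comparison and otherwise up to 3 called genes of smallest p per list. Copies were found with BLAST 2.17.0 (95% identity over 300 bases), motifs with Python 3.11.15. Exon lengths came from GENCODE M21 gene models, whose coordinates or gene version differ from the deposited annotation for Cdkn1a, Cdkn2b, Cdc25c, Kif11 and Kif20a. On simulated data 177 of 185 changed genes were called in the right direction and 14 others wrongly. The simulated noise was independent, with the same spread for a gene in all 20 libraries. It held neither the shift of E1KD replicate 1 nor a different spread in each set, so it gives no error rate for the real comparisons. Same-numbered replicates did not deviate together (correlations from -0.125 to 0.127). Alternatives covered scaling, pseudocount, filter, libraries fitted, the replicate block and left-out libraries.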

Additional observations from a re-analysis of the deposited data

Results flagged for a closer look

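In 9 of the 50 genes the effect of hnRNP E1 silencing differed between the sets of libraries by the interaction test (limma adjusted p under 0.05). The E1KD SCR effect less the E1KD effect was, on the log2 scale, -0.40 for Ccnd1, -0.51 for Ccnd2, -0.50 for Cdkn1a, -1.0016 for Cdkn2a, -0.32 for Cdkn2b, -0.94 for E2f7, -0.51 for Foxm1, 0.41 for Cenpf and 0.44 for Mki67. Without E1KD replicate 1, which leaves 1 E1KD library, the Cdkn2b difference was -0.24, and those of the other 8 kept their sign. With median-of-ratios scaling Ccnd1 was at -0.22 (limma adjusted p = 0.06723) and Cdkn2b at -0.15 (limma adjusted p = 0.2635) and did not pass, and those of the other 7 kept their sign and passed. The median of this difference over all genes was -0.17, and -0.03 with median-of-ratios scaling. E2f7 and Ccnd2 show the contrast in kind: E2f7 was higher than its control in E1KD and lower in E1KD SCR, and Ccnd2 was lower in both, by 0.48 and 0.99 on the log2 scale.

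In 14 genes the clones overexpressing Platr18 differed from each other by limma, and cl12 had the higher level of Lncenc1. The difference of cl16 and cl12 was 0.66 for Ccnd1, -0.55 for Ccnd2, -0.43 for Cdk4, -0.58 for Cdkn1a, 0.955 for Cdkn1b, 0.63 for Cdkn2c, 0.41 for E2f1, 0.65 for Foxm1, -0.45 for Mcm2, -0.47 for Cdt1, 0.27 for Gins2, 0.67 for Ccnb2, 0.81 for Cenpf and 0.36 for Mki67 on the log2 scale. With 1 clone per level, the dose of Platr18 and the clone cannot be told apart.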

How the results depend on the processing

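The count of called genes among the 50 was within 1.5 times its main value in every alternative for TGFβ (45) and for E1KD against TGFβ (47). For E1KD it was 4 with only the compared groups and 10 under p of 0.001 with a log2 fold change of 1. For M1P it was 0, 22 with only libraries of its set, and 2 under that stricter rule. For L1P it was 16 with median-of-ratios scaling, 18 with equal protein-coding sums, 23 with only the compared groups, 4 with only its set, 0 under the stricter rule, and 4 to 5 without a library. For the mean of the clones it was 21, 24, 27, 29 and 0 in that order, and 3 to 8 without a library. For Platr18 KD it was 14, 18, 25, 28 and 0, and 3 without any library. For cl16 against cl12 it was 28, 27, 27, 33 and 0, and 9 to 10 without a library. For E1KD SCR it was 4 under the stricter rule and 17 to 20 without a library. For the difference of E1KD effects it was 2 with only the compared groups, 1 under the stricter rule, 6 to 41 without a library, and 23 with equal sums and without either E1KD library. The share of all genes called moved as well. Fits without a library aside, it was 29.5%, 29.7%, 36.6%, 9.76% and 1.21% for L1P in the same order. It was 41.4%, 41.1%, 41.3%, 47.6% and 1.46% for the clones and 31.4%, 31.7%, 36.4%, 36.6% and 1.48% for Platr18 KD. For cl16 against cl12 it was 53.7%, 53.4%, 50.7%, 58.7% and 4.39%. It was 12.1% and 9.44% for E1KD, 2.38%, 27.9% and 3.59% for M1P, 5.98% for E1KD SCR, and 7.23% and 3.51% for the difference. The cause of these changes was not tested. The stricter rule asks for a larger change. Fits of 1 set or 1 comparison use a different spread and fewer residual degrees of freedom.

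Signs turned for small changes. In E1KD against NMuMG, Mki67 was -0.0353 with median-of-ratios scaling, -0.063 with equal sums and -0.17 with equal sums and without E1KD replicate 2, Cdk6 was -0.0401, -0.0677 and -0.20, and Gins2 was -0.0143 with equal sums and -0.0836 without replicate 2 as well. In E1KD against TGFβ, median-of-ratios scaling gave -0.37 for Cdkn1b and -0.0343 for E2f1, and equal sums without E1KD replicate 2 gave -0.24 for Cdkn1b. That last setting also gave 0.0538 for Ccnd2, 0.2236 for Foxm1, 0.23 for Cdkn1b and 0.26 for Cdkn2b in M1P against E1KD, and 0.0073 for Cdkn2b in the difference of E1KD effects. It was chosen after seeing the data, as was every fit with equal sums that leaves out an E1KD library.

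A replicate block gave 37 called genes for E1KD, 45 for TGFβ, 37 for M1P, 8 for L1P, 8 for the clones, 5 for Platr18 KD, 26 for E1KD SCR, 47 for E1KD against TGFβ, 13 for cl16 against cl12 and 8 for the difference of effects. In that order the shares of all genes were 56%, 54.8%, 47.9%, 18.1%, 28.1%, 18.9%, 41.9%, 71.3%, 41.9% and 20.6%. The replicate numbers share only a name, as correlations between same-numbered libraries ran from -0.125 to 0.127. Cdc45, Cdkn2a and E2f2 lie at or below a few CPM in some groups, where the depth and the pseudocount limit the fold change.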
